A study of Mus musculus with 93 samples.

Results

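The 36 imprinted genes described here, with Plagl1 among them, were chosen by symbol from the 30235 genes of the deposited tables, and every one of them was found. They are genes of which usually only the copy from 1 parent is transcribed, and they lie in 17 imprinted domains or single loci. The labels place the 93 libraries in 12 groups, made of 2 tissues, 2 genotypes and 3 ages, all from female mice with no treatment. The tissues were neural retina and posterior eyecup, the latter being what remains of the eye once lens and retina are taken out. The genotypes were Wt and Efemp1ki/ki, mice with both copies of Efemp1 replaced by a knock-in allele; EFEMP1 is the gene of Doyne honeycomb retinal dystrophy. Tissue was collected at 3, 9 and 17 months. Every group held 8 libraries, except Wt eyecups at 3 months (6) and Efemp1ki/ki eyecups at 17 months (7). The labels do not say whether libraries of a group came from separate mice. A p-value here thus weighs a difference only against the spread between libraries of a group, which may be technical. Nor do the labels say whether an eyecup and a retina came from the same mouse. The joint fit of both tissues treated them as separate. The alleles introduced by the knock-in are not resolved by gene counts, so no member checks the genotype labels, and the parental allele that was transcribed was not measured either.

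Imprinting is set in the germ line by DNA methylation at control regions, and a single control region often governs a cluster of protein-coding genes and long non-coding RNAs. Plagl1, also called Zac1, encodes a zinc finger transcription factor expressed from the paternal allele. It is known for inhibiting proliferation, for a role in the developing retina, and as a proposed hub of a network in which imprinted genes such as Igf2, H19, Cdkn1c and Dlk1 rise and fall together. The question put to these data was whether the other members moved with Plagl1 across genotype, age, tissue and the libraries of a group.

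Plagl1 and its related proteins bind GC-rich sites, of which the palindrome GGGGCCCC is a reported form. It was searched for in the 250 bases upstream of each RefSeq transcription start (build GRCm38.p6), where both strands read alike. RefSeq windows were found for 29 of the 36 members (44 windows), and 2 members, Peg3 and Rasgrf1, held the motif. Over all 32851 promoter windows of that length 0.889% held it. Those 2 windows and that of Plagl1, which has no match, are shown 5′ to 3′ on the strand of the gene, because Plagl1 is the factor in question and the other two are the matches. Capitals mark the motif. The Plagl1 window, chr10:13090582-13090831 on the plus strand, lies inside the longer gene model given by GENCODE (chromosome 10, 13060504 to 13131694).
Plagl1: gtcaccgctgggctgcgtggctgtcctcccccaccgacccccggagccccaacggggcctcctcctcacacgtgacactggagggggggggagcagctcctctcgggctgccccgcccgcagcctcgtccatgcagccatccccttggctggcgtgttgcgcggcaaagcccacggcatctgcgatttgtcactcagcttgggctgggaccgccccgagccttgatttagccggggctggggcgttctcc
The Peg3 window is chr7:6730420-6730669 on the minus strand. It runs across the start of Usp29, which is transcribed the other way: windows from 250 bases before to 50 after the start of each gene share 263 bases.
Peg3: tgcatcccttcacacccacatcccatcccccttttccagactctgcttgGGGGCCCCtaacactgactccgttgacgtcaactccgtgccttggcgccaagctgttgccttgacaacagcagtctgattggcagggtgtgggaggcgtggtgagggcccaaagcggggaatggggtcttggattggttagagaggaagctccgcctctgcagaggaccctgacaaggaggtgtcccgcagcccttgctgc
The Rasgrf1 window is chr9:89909525-89909774 on the plus strand.
Rasgrf1: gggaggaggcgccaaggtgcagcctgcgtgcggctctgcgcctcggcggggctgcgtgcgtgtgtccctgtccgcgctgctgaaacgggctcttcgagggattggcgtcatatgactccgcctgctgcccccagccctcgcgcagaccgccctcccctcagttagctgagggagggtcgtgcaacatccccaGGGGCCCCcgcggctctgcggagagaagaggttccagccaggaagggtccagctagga

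The 45 eyecup libraries held 14236127 to 35297627 estimated counts each, and the 48 retina libraries 9218127 to 37475492. Libraries of 1 tissue differed in their content of other tissue. The summed level of 10 rod markers ran from 171 to 22377 CPM (counts per 1000000, scaled to library totals) among eyecups and 49492 to 67453 CPM among retinas. The summed level of 10 skeletal muscle markers ran from 2504 to 44524 CPM in eyecups, and that of 12 pigment epithelium markers from 761 to 2707 CPM. Libraries also differed in how levels followed the GC content of transcripts. Between 3-month eyecups this GC trend, in log2 units per 10 percentage points of GC, ran from 0.047 to 0.815 in Efemp1ki/ki and from -0.099 to -0.029 in Wt, with no overlap. The trend was extreme (over 3 scaled median absolute deviations from the median) in 2 eyecups, both Efemp1ki/ki at 3 months, and in 4 retinas. In overall profile 1 eyecup (Efemp1ki/ki, 17 months) and 2 retinas (Efemp1ki/ki at 3 months, Wt at 17 months) stood apart from their groups.

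Levels were compared between genes on the deposited TPM values, which account for transcript length. Gnas, the alpha subunit of the stimulatory G protein, was the most abundant member in both tissues, with a median of 751 TPM in eyecups (628 to 832) and 870 TPM in retinas (763 to 1019). In retinas it was followed by the spliceosome protein gene Snrpn with a median of 369 TPM, and then by the non-coding RNA genes Meg3 with 324 TPM and Rian with 238 TPM. In eyecups the next in order were Nnat, a small proteolipid gene, with a median of 120 TPM, the growth factor gene Igf2 with 83.7 TPM and the coatomer subunit gene Copg2 with 75.5 TPM. The ranges of these last 3 overlapped. Plagl1 was a member of middle to low level, 24th of 36 in eyecups (median 5.75 TPM, 2.98 to 11.5) and 19th in retinas (median 14.9 TPM, 9.91 to 19.9), its range overlapping those of its neighbours. The lowest members were Magel2, a MAGE-family gene, in eyecups (median 0.104 TPM) and Phlda2, a growth-restraining PH-domain gene, in retinas (median 0.0 TPM).

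**Figure D1:**
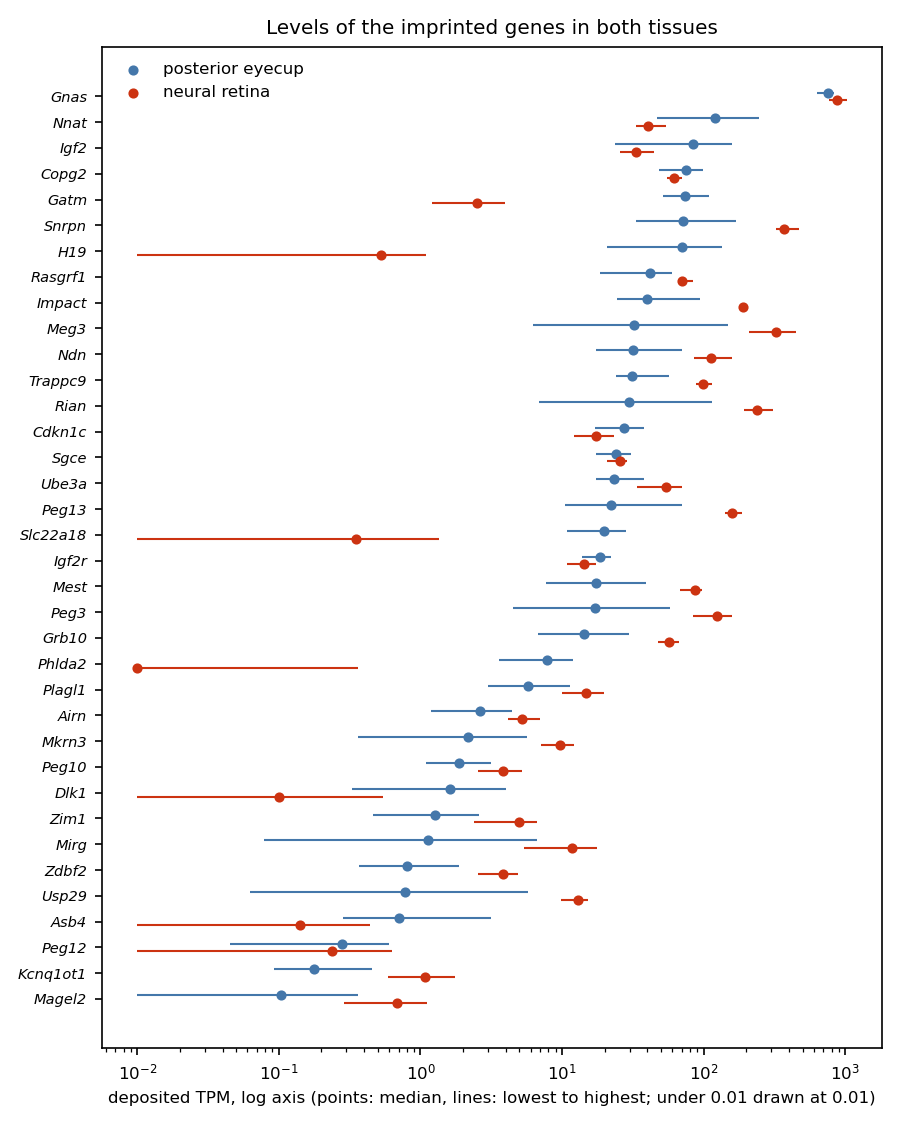
Deposited TPM of the 36 imprinted genes on a log axis, with points at the median and lines from the lowest to the highest library, for 45 eyecups (blue) and 48 retinas (red); values under 0.01 are drawn at 0.01. Gnas has the highest median in both tissues, and H19, Slc22a18, Phlda2, Gatm and Dlk1 are far lower in retinas than in eyecups.

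Nearly all members differed between the tissues, as nearly all genes did. Of the 35 members tested in a joint fit of all libraries (Peg12, a FRAT-family gene, was too low), 34 differed between eyecup and retina, 13 higher in eyecups and 21 higher in retinas, where 94.7% of all 19210 genes differed (47.7% higher in eyecups and 47.0% lower). The 13 include Phlda2, Slc22a18, Dlk1 and Asb4, which did not pass the filter on low counts in retinas and entered the joint fit through the eyecups, where they are high, so they had to differ. H19, the maternally expressed non-coding RNA beside Igf2, ranged in eyecups from 17.0 to 167 CPM (median 69.4), and in retinas from 0.0 to 0.876 CPM (median 0.404). Gatm, the first enzyme of creatine synthesis, ranged in eyecups from 36.8 to 114 CPM (median 71.8), and in retinas from 0.893 to 2.93 CPM (median 1.79). Neither gene's ranges overlapped between the tissues.

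Slc22a18, a transporter-like gene of the Kcnq1ot1 domain, ranged in eyecups from 6.86 to 19.2 CPM, and in retinas from 0.0 to 0.69 CPM. Its neighbour Phlda2 ranged from 0.853 to 4.13 CPM in eyecups and was at 0 in 42 of 48 retinas, with a highest value of 0.0767 CPM. Both were higher in every eyecup than in any retina. Nnat was higher in eyecups with a log2 difference of 2.29 (SE 0.07), as was Igf2r, the receptor that removes IGF2, with 1.12 (SE 0.04). Their adjusted p-values from edgeR with Benjamini-Hochberg adjustment were 7.26e-47 and 1.14e-46.

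On the retina side stood the non-coding RNAs of the Dlk1-Meg3 domain and the Peg3 domain. The edgeR log2 difference of eyecup minus retina was -2.61 for Meg3, -2.20 for Mirg, a host of microRNAs, and -2.11 for Rian, a host of small nucleolar RNAs. For Usp29, a ubiquitin protease gene, it was -2.81, and for Peg3, a zinc finger gene, -2.03. Plagl1 itself was higher in retinas, by a log2 difference of -0.54 (SE 0.07, adjusted p = 2.76e-12 by edgeR with Benjamini-Hochberg adjustment). Rasgrf1, a guanine nucleotide exchange factor gene, was the single member that did not pass the test (log2 difference -0.07, SE 0.04). On the log2(TPM + 1) scale the median of all genes lay at -0.52, and for Gnas and Sgce (epsilon-sarcoglycan) the order turned: the median TPM of Sgce was 24.0 in eyecups and 25.7 in retinas. In a bulk sample, fewer cells of a type and less RNA per cell cannot be told apart.

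Plagl1 was lower in Efemp1ki/ki eyecups than in Wt eyecups. At 3 months it ranged from 14.0 to 20.1 CPM in Wt (median 17.9, n = 6) and from 5.28 to 9.45 CPM in Efemp1ki/ki (median 6.95, n = 8). Every Efemp1ki/ki eyecup lay below every Wt eyecup. The log2 difference was -1.25 (SE 0.20), with an adjusted p of 0.00183 by edgeR with Benjamini-Hochberg adjustment over 18003 genes.

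At 9 months Plagl1 ranged from 11.1 to 21.5 CPM in Wt (median 16.4, n = 8) and from 8.68 to 23.2 CPM in Efemp1ki/ki (median 13.9, n = 8). These groups overlapped over most of their range, and the log2 difference was -0.19 (SE 0.18, adjusted p = 1.00 by edgeR with Benjamini-Hochberg adjustment). At 17 months it ranged from 13.8 to 17.9 CPM in Wt (median 15.1, n = 8) and from 6.04 to 13.8 CPM in Efemp1ki/ki (median 8.34, n = 7). The groups did not overlap, with the highest Efemp1ki/ki library at 13.756 CPM just under the lowest Wt library at 13.805 CPM. The log2 difference was -0.85 (SE 0.19) and missed the threshold of 0.05 by edgeR (adjusted p = 0.0813), while DESeq2 gave an adjusted p of 0.00865. Of 13 alternatives 3 called it, and 0.00865 was the lowest adjusted p among them. Averaged over the ages the difference was -0.77 (SE 0.11, adjusted p = 9.23e-05 by edgeR with Benjamini-Hochberg adjustment). The change of this difference from 3 to 17 months was 0.41 (SE 0.27) and did not pass (adjusted p = 0.998 by edgeR with Benjamini-Hochberg adjustment).

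Plagl1 was called at 3 months in 13 of 13 other ways of processing and for the mean of ages in 12 of 12. With an offset for each library's GC trend the 3-month log2 difference was -1.18. Without the 2 libraries of extreme GC trend it was -1.17, and with covariates for muscle, rod and ocular surface epithelium markers it was -1.25. Over the mean of ages 3 of 12 pigment epithelium markers were lower in Efemp1ki/ki eyecups and 0 higher, beside 3.37% of all genes lower. At 3 months 1 of the 12 was lower and 0 higher, beside 2.61% of all genes lower. The summed level of the 12 markers at 3 months overlapped between genotypes. It ran from 1542 to 2282 CPM in Wt and from 1230 to 2686 CPM in Efemp1ki/ki, with none of the 12 at 0. The part of these markers in the Plagl1 result was not tested.

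**Figure D2:**
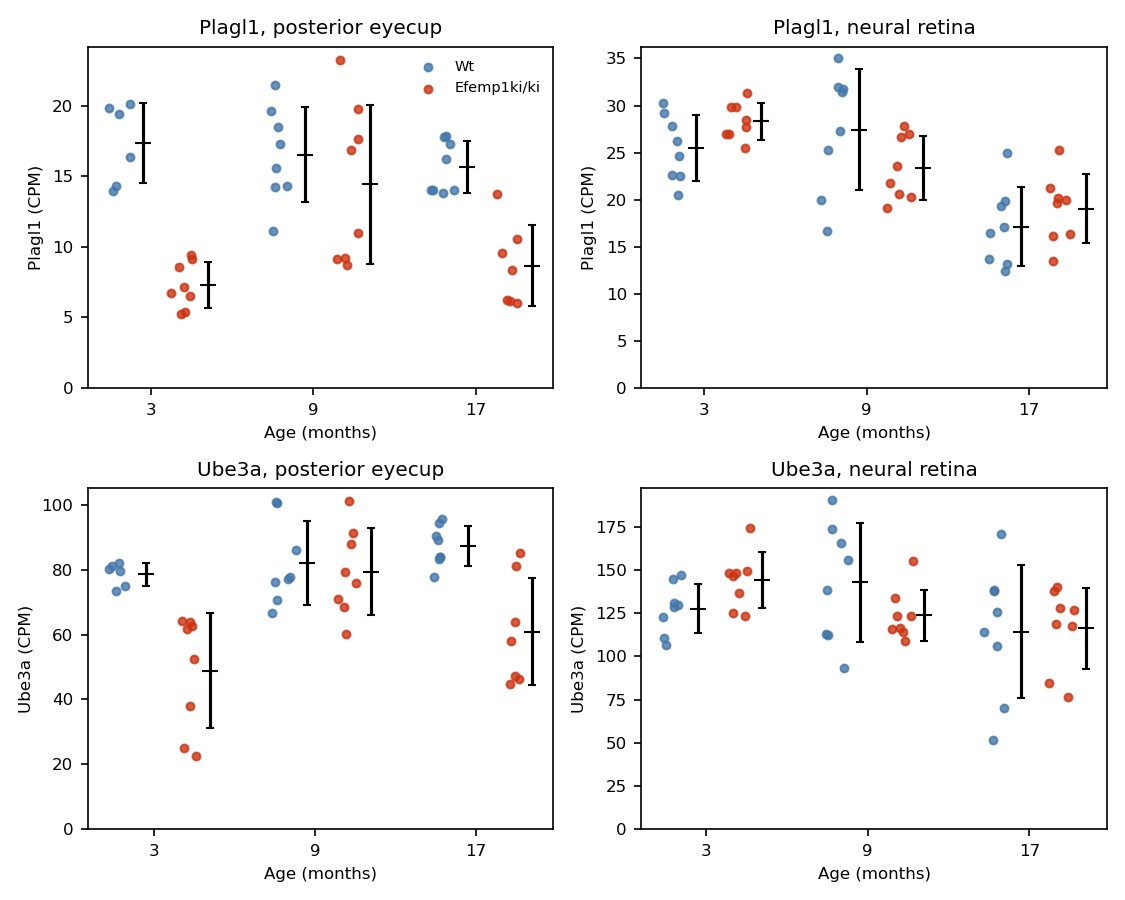
Plagl1 (top) and Ube3a (bottom) in CPM against age in months, in eyecups (left) and retinas (right), with a point for each library and bars for mean and SD (6 to 8 libraries a group). In eyecups at 3 months every Efemp1ki/ki library lies below every Wt library for both genes, and the retinal groups overlap at each age.

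Of the other 35 members, only Ube3a was called in a genotype comparison of the eyecup by edgeR as fitted; with marker covariates Asb4, Impact and Trappc9 were called as well at 3 months, where 12.1% of all genes were. Ube3a encodes the ubiquitin ligase of Angelman syndrome and is imprinted in neurons, where the maternal copy is active, but expressed from both copies in most other cells. At 3 months it ranged from 73.4 to 82.0 CPM in Wt (median 79.9) and from 22.5 to 64.1 CPM in Efemp1ki/ki (median 57.1), and the groups did not overlap. The log2 difference was -0.69 (SE 0.17, adjusted p = 0.0219 by edgeR with Benjamini-Hochberg adjustment). At 9 months the groups overlapped, from 66.5 to 101.0 CPM in Wt and from 60.3 to 101.3 CPM in Efemp1ki/ki, and the difference was -0.05 (SE 0.16). At 17 months the ranges were 77.9 to 95.5 CPM in Wt and 44.9 to 85.1 CPM in Efemp1ki/ki, which overlapped, and the difference of -0.52 (SE 0.17) did not pass (adjusted p = 0.267 by edgeR with Benjamini-Hochberg adjustment). Over the mean of ages it was -0.42 (SE 0.10, adjusted p = 0.00835 by edgeR with Benjamini-Hochberg adjustment).

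Unlike that of Plagl1, the Ube3a call rested on the processing. The GC content of its transcript was 36.9%, low beside the median of 49.7% over all genes tested, and genes lower in Efemp1ki/ki at 3 months had a median GC content of 40.0%. With the GC offset the 3-month difference was -0.21 (adjusted p = 0.827 by edgeR with Benjamini-Hochberg adjustment). Without the 2 eyecups of extreme GC trend it was -0.45 (adjusted p = 0.190), and on log2(TPM + 1) it was -0.04. Ube3a was called in 6 of 13 alternatives at 3 months and in 8 of 12 for the mean of ages.

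The members' share of calls was read against that of all genes. At 3 months 2 of 36 members were called, both lower, where 3.07% of all genes were called and 2.61% were called lower. The median difference was -0.055 over the members and 0.034 over all genes. At 9 months edgeR called 0 members, 0 had an unadjusted p under 0.05, and DESeq2 and limma voom called 0, with 0.00555% of all genes called and 1.38% at an unadjusted p under 0.05. At 17 months edgeR called 0 members, 3 had an unadjusted p under 0.05, DESeq2 called 1 and limma voom 3, with 0.0611% of all genes called and 10.0% at an unadjusted p under 0.05. For the mean of ages 2 were called, both lower, beside 4.48% of all genes, 3.37% lower. For the change from 3 to 17 months edgeR called 0 members, 0 had an unadjusted p under 0.05, and DESeq2 and limma voom called 0, beside 0.0% of all genes and 3.11% at an unadjusted p under 0.05.

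The members most often placed in a network with Plagl1 did not pass the genotype test in eyecups. Igf2 at 3 months ranged from 141 to 310 CPM in Wt (median 172) and from 138 to 243 CPM in Efemp1ki/ki (median 175). H19 at 3 months ranged from 36.5 to 108 CPM in Wt (median 69.5) and from 56.0 to 163 CPM in Efemp1ki/ki (median 66.1). The genotypes overlapped for both genes, and their medians lay close together.

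Cdkn1c, the cell cycle inhibitor p57, ranged at 3 months from 21.9 to 29.3 CPM in Wt (median 23.1) and from 18.7 to 33.4 CPM in Efemp1ki/ki (median 24.0). Dlk1, a transmembrane inhibitor of adipocyte differentiation, ranged from 1.31 to 3.18 CPM in Wt (median 1.83) and from 1.06 to 3.07 CPM in Efemp1ki/ki (median 2.08). The genotypes overlapped for both. Members differed in their spread between eyecups of a group: the SD of log2 CPM within groups was 0.37 for Plagl1, 0.34 for Cdkn1c and 0.23 for Igf2r, but 0.51 for Igf2, 0.68 for Dlk1, 0.85 for H19 and 1.42 for Meg3.

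**Figure D3:**
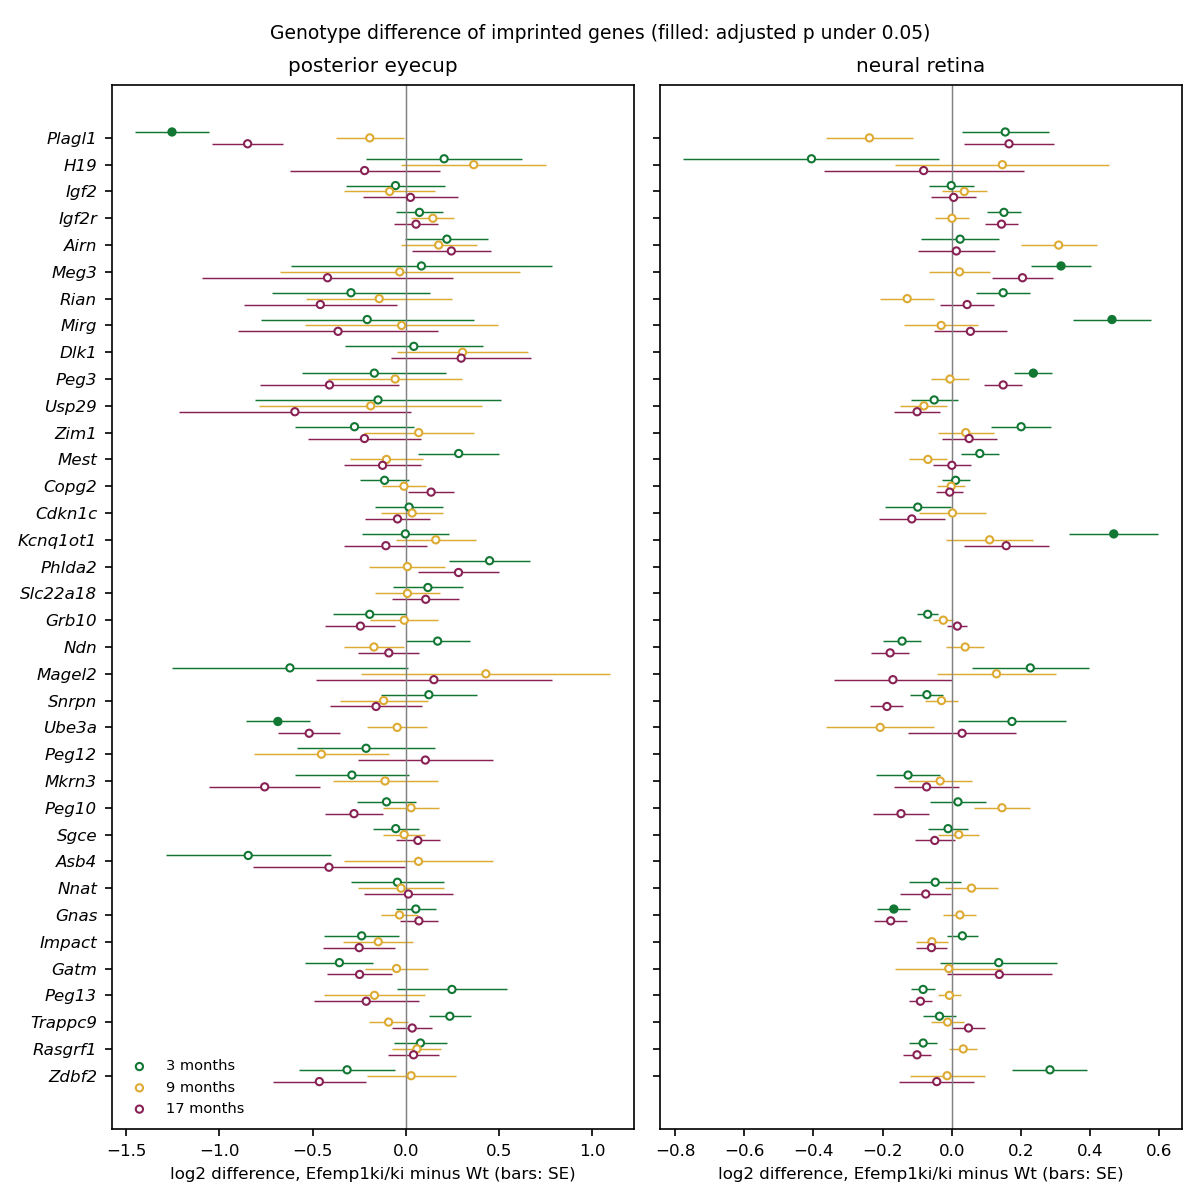
Log2 difference of Efemp1ki/ki minus Wt for each imprinted gene at 3, 9 and 17 months in eyecups (left) and retinas (right), with bars of 1 SE and filled points where the adjusted p was under 0.05. Filled points are Plagl1 and Ube3a in eyecups and Meg3, Mirg, Peg3, Kcnq1ot1 and Gnas in retinas, all at 3 months; the axes of the panels differ in scale.

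In retinas Plagl1 did not differ beyond the spread between libraries. At 3 months it ranged from 20.5 to 30.3 CPM in Wt (median 25.4) and from 25.4 to 31.3 CPM in Efemp1ki/ki (median 28.1), and the groups overlapped. The log2 difference was 0.15 (SE 0.13) at 3 months, -0.24 (SE 0.13) at 9 months and 0.17 (SE 0.13) at 17 months, with adjusted p-values of 0.517, 0.808 and 0.574 by edgeR with Benjamini-Hochberg adjustment. For the mean of ages it was 0.03 (SE 0.07, adjusted p = 0.878).

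The difference between the tissues was itself tested. The genotype difference of Plagl1, eyecup minus retina over the mean of ages, was -0.80 (SE 0.13, adjusted p = 0.000599 by edgeR with Benjamini-Hochberg adjustment), and it was called in 12 of 12 alternatives. For Ube3a it was -0.42 (SE 0.13, adjusted p = 0.0487 by edgeR with Benjamini-Hochberg adjustment), called in 1 of 12 alternatives. These were the 2 members called of 35, both lower, beside 3.23% of all genes, 2.41% lower.

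Retinal members that differed by genotype were others than Plagl1, and the differences were small. Of 36 members 31 were tested in retinas, the untested ones being Dlk1, Phlda2, Slc22a18, Peg12 and Asb4, an ankyrin repeat gene. At 3 months 5 of the 31 were called, 4 higher and 1 lower, beside 1.83% of all 17240 genes, 0.963% higher and 0.87% lower. The median difference was 0.018 over the members and -0.00099 over all genes.

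Mirg ranged from 4.93 to 9.07 CPM in Wt retinas at 3 months (median 7.44) and from 8.42 to 12.6 CPM in Efemp1ki/ki (median 9.46), with a log2 difference of 0.46 (SE 0.11). Meg3, of the same domain, ranged from 773 to 1022 CPM in Wt (median 874) and from 911 to 1326 CPM in Efemp1ki/ki (median 1063), with a difference of 0.32 (SE 0.09). Their ranges overlapped at the edges. The adjusted p was 0.0271 for Mirg and 0.0476 for Meg3 by edgeR with Benjamini-Hochberg adjustment.

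Peg3, a paternally expressed zinc finger gene, ranged from 319 to 384 CPM in Wt (median 354) and from 370 to 464 CPM in Efemp1ki/ki (median 420.0), with a difference of 0.24 (SE 0.05) and an adjusted p of 0.0207 by edgeR with Benjamini-Hochberg adjustment. Kcnq1ot1, the antisense RNA that silences its domain, ranged from 24.2 to 41.1 CPM in Wt (median 28.7) and from 29.2 to 50.03 CPM in Efemp1ki/ki (median 40.9), with a difference of 0.47 (SE 0.13). Gnas was the lower one, from 593 to 720 CPM in Wt (median 653) and from 505 to 658 CPM in Efemp1ki/ki (median 578), with a difference of -0.17 (SE 0.05). All 3 overlapped between genotypes, and the adjusted p was 0.0466 for Kcnq1ot1 and 0.0492 for Gnas by edgeR with Benjamini-Hochberg adjustment. Of 13 alternatives, 4 called Gnas, 7 Kcnq1ot1, 9 Meg3, 11 Mirg and 11 Peg3.

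At 9 months edgeR called 0 members in retinas, 1 had an unadjusted p under 0.05, and DESeq2 and limma voom called 0, beside 0.0% of all genes called and 6.07% at an unadjusted p under 0.05. At 17 months edgeR called 0, 8 had an unadjusted p under 0.05, DESeq2 called 2 and limma voom 0, beside 0.406% of all genes called and 15.2% at an unadjusted p under 0.05. For the mean of ages 6 were called beside 5.24% of all genes, 2.55% higher and 2.69% lower. Peg3 (0.13), Meg3 (0.18), Igf2r (0.10) and Kcnq1ot1 (0.24) were higher and Gnas (-0.11) and Snrpn (-0.10) lower in log2 terms, with SE of 0.03 to 0.07. For the change from 3 to 17 months edgeR called 0 members, 3 had an unadjusted p under 0.05, and DESeq2 and limma voom called 0, beside 0.0% of all genes and 4.0% at an unadjusted p under 0.05.

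Lens markers moved with genotype in the retinas. Of 10 listed 6 were tested, and edgeR called all 6 higher in Efemp1ki/ki over the mean of ages, beside 2.55% of all genes. DESeq2 then called 5 and limma voom 0. At 3, 9 and 17 months alone edgeR called 0, and DESeq2 3, 0 and 2. Over the mean of ages edgeR called 0 of the ocular surface epithelium, skeletal muscle, melanocyte and fibroblast markers. Of 12 pigment epithelium markers it called 1, lower. Of 7 Mueller glia markers it called 3, all lower, beside 2.69% of all genes lower. It also called 1 lower among 10 rod markers, 1 among 8 retinal neuron markers and 1 among 5 tested nerve and Schwann cell markers. The part of the Mueller glia, neuron and nerve markers in the members' differences was not tested. The summed level of the 9 lens markers found ran at 3 months from 0.501 to 24.0 CPM in Wt (median 0.747) and from 0.654 to 829.5 CPM in Efemp1ki/ki (median 8.54). With covariates for lens, pigment epithelium and rod markers 0 of the retinal members were called at 3 months or for the mean of ages. Calls over all 17240 genes then fell as well, from 316 to 4 at 3 months and from 903 to 136 for the mean of ages. At 3 months Mirg then had a difference of 0.39 (adjusted p = 0.239) and Peg3 of 0.16 (adjusted p = 0.245) by edgeR with Benjamini-Hochberg adjustment.

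More members were called for age than for genotype. In retinas 22 of 31 members differed between 17 and 3 months, averaged over the genotypes, 9 higher and 13 lower, beside 36.4% of all genes, 19.1% higher and 17.3% lower. Plagl1 had the lowest value of all of them. At 17 months it ranged from 12.4 to 24.9 CPM in Wt (median 16.8) and from 13.5 to 25.3 CPM in Efemp1ki/ki (median 19.8). The Wt range overlapped that at 3 months, and in Efemp1ki/ki every 17-month retina lay below every 3-month retina. The log2 difference of 17 minus 3 months was -0.58 (SE 0.09, adjusted p = 2.96e-06 by edgeR with Benjamini-Hochberg adjustment), called in 12 of 12 alternatives.

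Markers of retinal cells moved with age too. Of 10 rod markers 8 fell and 1 rose, and of 8 retinal neuron markers 5 fell and 0 rose. With covariates for lens, pigment epithelium and rod markers 14 members were called in place of 22. Calls over all 17240 genes then fell as well, from 6273 to 3380. Plagl1 then had a difference of -0.66 (SE 0.11). The part of the retinal neuron markers was not tested.

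Among members that rose in the ageing retina were Zim1, a maternally expressed zinc finger gene of the Peg3 domain, and Grb10, an adaptor that restrains insulin receptor signalling. Zim1 at 3 months ranged from 6.38 to 11.0 CPM in Wt (median 8.08) and at 17 months from 11.1 to 15.01 CPM (median 12.6). In Efemp1ki/ki it ranged from 7.38 to 11.5 CPM (median 9.82) and from 11.2 to 14.7 CPM (median 12.9). The Wt ranges did not overlap between ages and those of Efemp1ki/ki overlapped slightly, with a log2 difference of 0.52 (SE 0.06, adjusted p = 5.7e-10 by edgeR with Benjamini-Hochberg adjustment).

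Grb10 ranged from 101 to 109 CPM at 3 months and from 107 to 121 CPM at 17 months in Wt, and from 95.6 to 103 CPM and from 113 to 124 CPM in Efemp1ki/ki. Its difference was small but tight, at 0.18 (SE 0.02, adjusted p = 7.34e-10 by edgeR with Benjamini-Hochberg adjustment), with no overlap between ages in Efemp1ki/ki. Meg3 rose by 0.38 (SE 0.06) and Peg3 by 0.20 (SE 0.04). Peg10, a retrotransposon-derived gene, fell by 0.30 on the log2 scale (SE 0.06). All 3 were called in 12 of 12 alternatives.

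In the ageing retina the members were also counted by the allele they usually express, a grouping noted after the values were seen, so the counts are a description and were not tested. Of 12 maternally expressed members tested, 7 rose (H19, Zim1, Gatm, Meg3, Mirg, Grb10 and Igf2r) and 1 fell (Cdkn1c), with a median difference of 0.17. H19 was near the floor in retinas, with a median of 0.404 CPM. The allele transcribed in the retina was not measured for any member. Of 18 paternally expressed members, 2 rose (Kcnq1ot1 and Peg3) and 11 fell, among them Plagl1, Igf2, Mest, a hydrolase-fold gene, Ndn and Magel2, MAGE-family genes, and Sgce, with a median of -0.14. With marker covariates 6 of the 18 fell (median -0.10), and on log2(TPM + 1) 5 fell (median -0.03), while of the 12 maternal members 4 and 9 rose. Gnas, whose imprinting depends on the promoter, fell. With Grb10 counted as paternal, as it is in neurons, the counts were 6 higher and 1 lower of 11 maternal members and 3 higher and 11 lower of 19 paternal members. By transcript type, 4 of 7 non-coding members rose and 0 fell, while 5 of 24 protein-coding members rose and 13 fell. Over all genes, 698 of 2552 non-coding genes rose and 99 fell, and 2589 of 14688 protein-coding genes rose and 2887 fell.

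**Figure D4:**
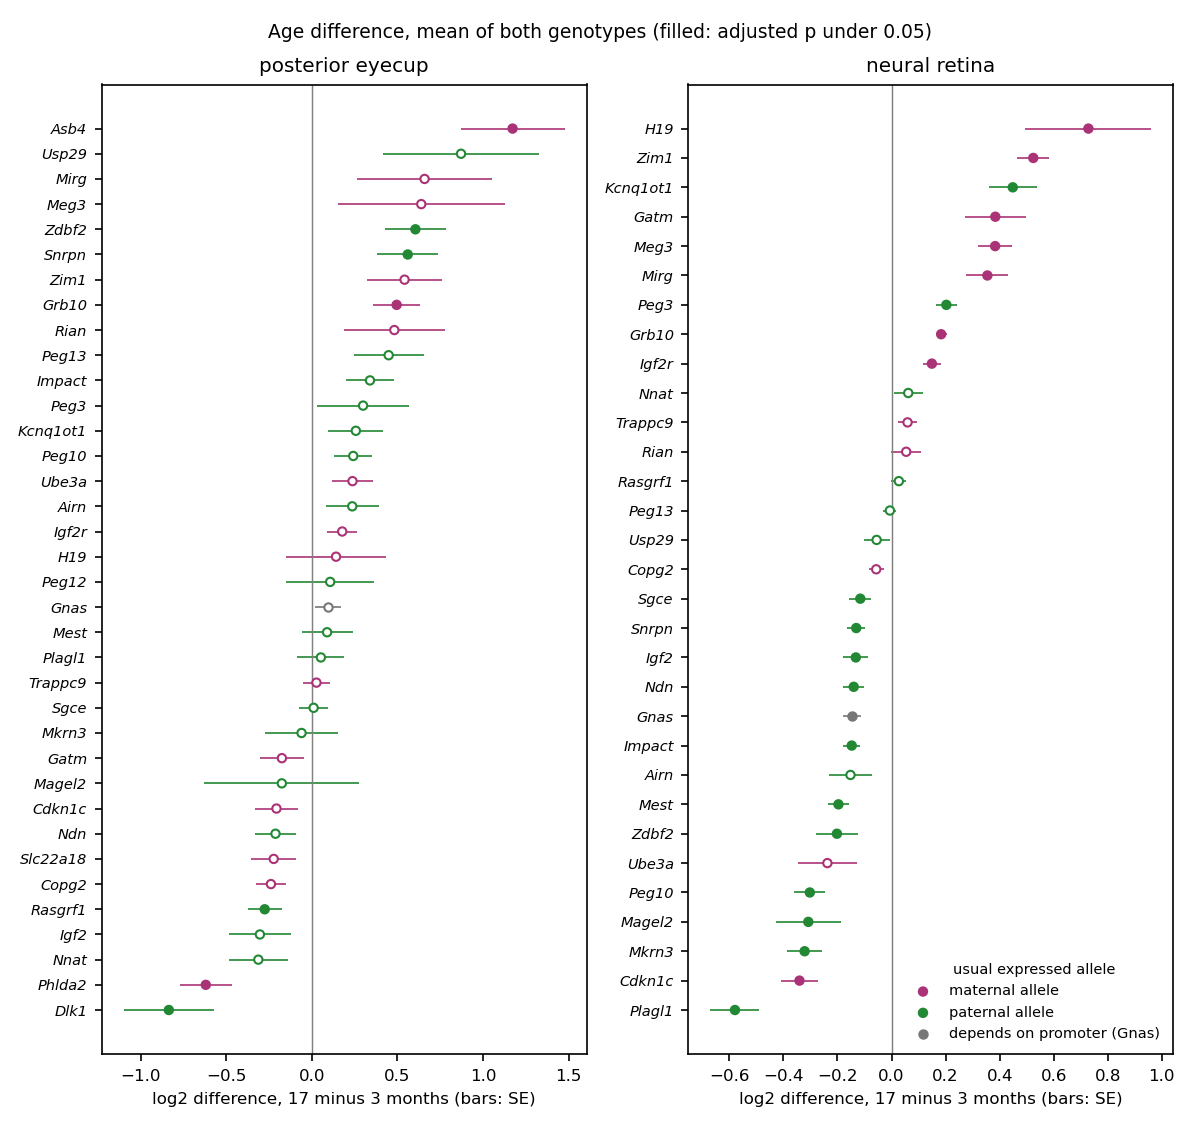
Log2 difference of 17 minus 3 months, mean of both genotypes, for each imprinted gene in eyecups (left) and retinas (right), ordered by value and coloured by the allele usually expressed, with bars of 1 SE and filled points where the adjusted p was under 0.05. In retinas Plagl1 lies lowest at -0.58 and 11 of the 13 members that fell are paternally expressed; Plagl1 in eyecups lies near 0, at 0.05.

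In eyecups 7 of 36 members differed with age, 4 higher and 3 lower, beside 20.7% of all genes, 11.6% higher and 9.13% lower. Plagl1 was not among them (log2 difference 0.05, SE 0.14). Asb4 rose by 1.17 (SE 0.30), Zdbf2, a zinc finger gene, by 0.60 (SE 0.18), Snrpn by 0.56 (SE 0.18) and Grb10 by 0.50 (SE 0.14). Dlk1 fell by 0.84 (SE 0.26), Phlda2 fell by 0.62 (SE 0.15) and Rasgrf1 fell by 0.28 (SE 0.10), all on the log2 scale by edgeR.

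Phlda2 in Wt eyecups ranged from 1.34 to 3.19 CPM at 3 months (median 2.34) and from 1.21 to 2.14 CPM at 17 months (median 1.52). In Efemp1ki/ki eyecups it ranged from 2.39 to 4.13 CPM (median 3.16) and from 1.36 to 2.27 CPM (median 2.19), with no overlap between ages in the latter. Dlk1 was at 1.31 to 3.18 CPM in Wt at 3 months and at 0.450 to 2.01 CPM at 17 months, with overlap. Markers of other tissue moved with age as well: 6 of 10 ocular surface epithelium markers fell and 4 of 10 skeletal muscle markers rose in the eyecup, with summed muscle medians of 8640 CPM in Wt at 3 months and 13186 CPM at 17 months. With muscle, rod and surface epithelium covariates 0 members were called for age in the eyecup. Calls over all 18003 genes then fell as well, from 3724 to 688. Dlk1 then had a difference of -1.08 and Zdbf2 of -0.03.

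Whether the members moved with Plagl1 was also asked between libraries of a group, as the slope of each gene's log2 level on the deviation of Plagl1 from its group mean, which sets differences between groups aside. A slope of 1 means that a gene doubles where Plagl1 doubles. In eyecups 1 of 35 members was called, beside 2.16% of all genes, 1.98% with a positive slope. This was Ube3a, with a slope of 0.58 (SE 0.11, adjusted p = 0.00117 by edgeR with Benjamini-Hochberg adjustment). Igf2 had a slope of 0.10 (SE 0.22), H19 of 0.01 (SE 0.34), Cdkn1c of 0.03 (SE 0.15) and Dlk1 of -0.49 (SE 0.30), none called. The median slope was 0.029 over the members and -0.037 over all genes.

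In retinas 11 of 30 members were called, 8 with a positive and 3 with a negative slope, beside 34.0% of all genes (17.2% positive and 16.8% negative), so the members' share was close to that of all genes. Without the 2 retinas that stood apart 7 members were called, and without the 4 of extreme GC trend (Efemp1ki/ki at 3 months, Wt at 9 months and 2 Wt at 17 months) 6. Over all genes 5480 of 17313 were called without those 2, and 3620 of 17386 without those 4. Ube3a again had the steepest slope, 0.96 (SE 0.11, adjusted p = 3.07e-09 by edgeR with Benjamini-Hochberg adjustment). Positive slopes were also called for Gatm (0.55, SE 0.17), Zdbf2 (0.45, SE 0.11), Usp29 (0.27, SE 0.07) and Impact (0.20, SE 0.04), a regulator of the kinase GCN2. The negative ones were Trappc9, a trafficking complex subunit (-0.22, SE 0.05), Gnas (-0.14, SE 0.05) and Peg13, a non-coding RNA inside Trappc9 (-0.12, SE 0.04). Igf2 had a slope of -0.17 and Cdkn1c of -0.17, neither called.

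Slopes on Plagl1 followed transcript GC content across all genes, with a Spearman correlation of -0.648 over 17959 genes in eyecups and -0.734 over 17197 genes in retinas. Genes are not independent replicates, and these are descriptions. With the GC offset 0 of the eyecup members were called by edgeR, beside 28 of all 18002 genes. The slope of Ube3a was 0.22 (adjusted p = 0.388 by edgeR with Benjamini-Hochberg adjustment). In retinas 3 members were then called, beside 6.25% of all genes. Ube3a kept a slope of 0.36 (SE 0.06, adjusted p = 1.99e-05 by edgeR with Benjamini-Hochberg adjustment) and was called in 12 of 12 alternatives there. The other two were Sgce (-0.55, SE 0.10) and Rian (-0.48, SE 0.09), whose slopes without the offset were -0.05 and 0.24.

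**Figure D5:**
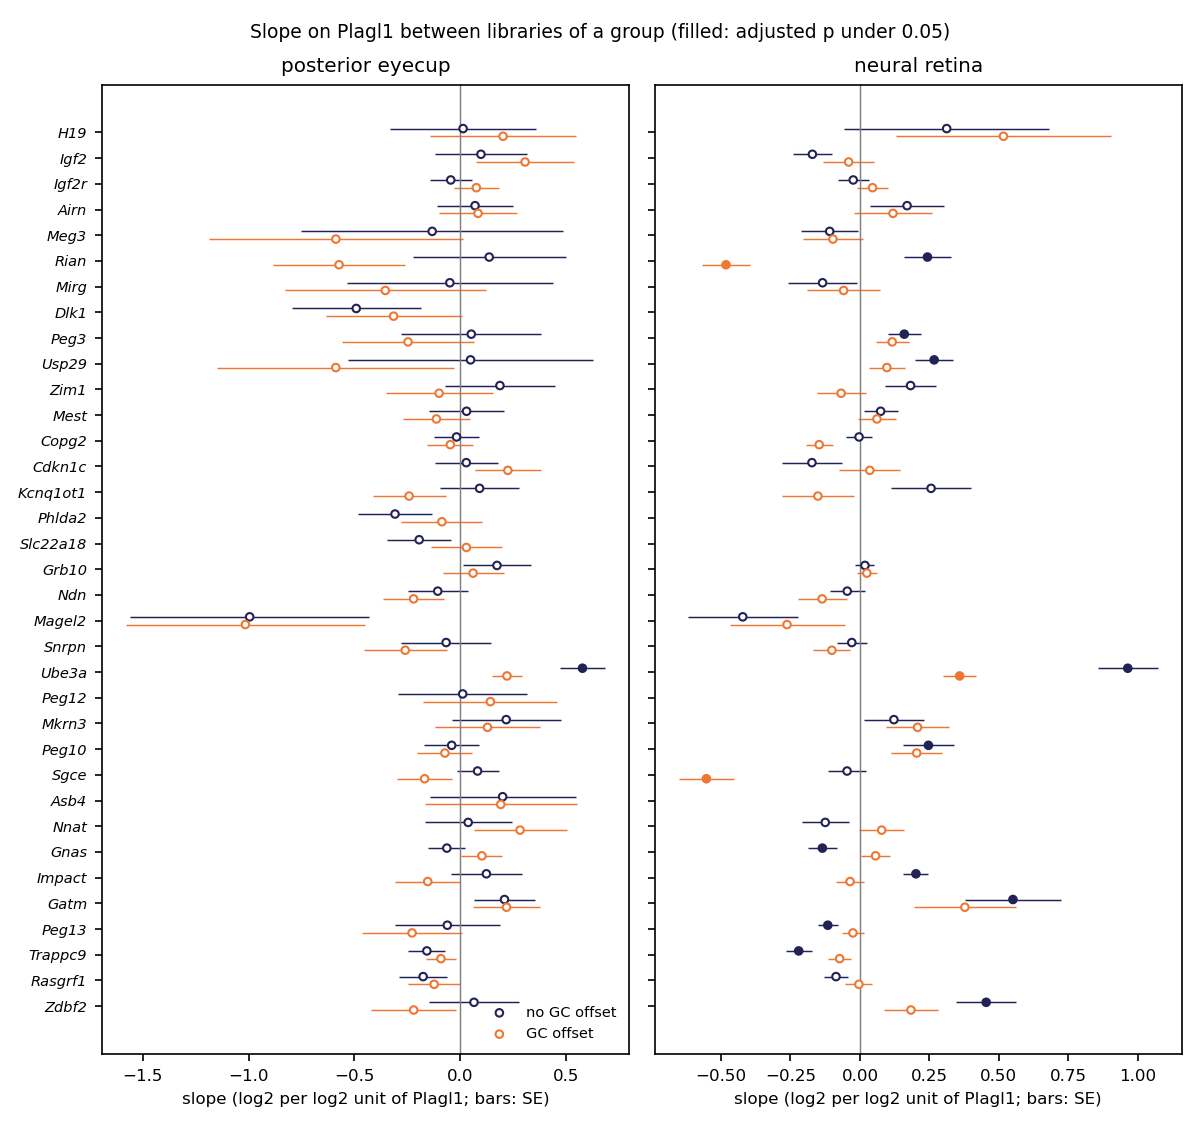
Slope of each imprinted gene on Plagl1 between libraries of a group (log2 per log2 unit), without and with a GC offset per library, in eyecups (left) and retinas (right), with bars of 1 SE and filled points where the adjusted p was under 0.05. Without the offset Ube3a has the steepest called slope in both tissues, at 0.58 and 0.96; with it Ube3a lies at 0.22 in eyecups, not called, and at 0.36 in retinas, where Sgce (-0.55) and Rian (-0.48) are called too; the axes of the panels differ in scale.

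The genes whose levels followed Plagl1 most closely were not imprinted members. In eyecups (45 libraries) the 6 smallest p-values among such genes belonged to Sh3bgrl, Vma21, Rnf11, Mzt1, Marcks and Zc2hc1a, with slopes of 0.52 to 0.96. Sh3bgrl had the steepest slope, 0.96, and its slope was 0.62 with the GC offset. In retinas (48 libraries) they were Trp53inp1, Fmr1, Bmt2, Syncrip, Trove2 and Lcorl, with slopes of 0.69 to 1.04. The transcripts of these 12 genes had a GC content of 36.6% to 45.1%, and the slope of Syncrip was 0.69 without and 0.09 with the offset.

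In eyecups 9 of 11 pairs of members within a domain passed, some moving together and some in opposite directions. Over 21 pairs within a domain, deviations from group means were correlated, with permutation within groups and Benjamini-Hochberg adjustment over the 21. No correlation was computed for pairs of other genes, so no share stands beside this count. Between eyecups 66.7% of all genes had a called slope on rod markers. Among members Meg3, Usp29, Mirg, Rian and Peg3 had the steepest, as given below, and the part of rod markers in the pairs was not tested. In eyecups (45 libraries) Meg3 and Mirg had a Pearson r of 0.951 (Spearman 0.948), and r was 0.945 without the 2 libraries farthest from the median. Meg3 and Rian had an r of 0.95 (Spearman 0.930, 0.935 without those 2), and Peg3 and Usp29, which start close together on opposite strands, an r of 0.936 (Spearman 0.914, 0.918 without those 2). Each of these had a permutation p of 1e-05, the smallest the permutations could give, and an adjusted p of 4e-05.

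Peg13 and Trappc9 had an r of 0.779 (Spearman 0.792, 0.774 without 2 libraries, adjusted permutation p = 4e-05). Peg10 and Sgce had an r of 0.646 (Spearman 0.612, 0.611 without 2, adjusted permutation p = 0.000315), and Snrpn and Ndn an r of 0.626 (Spearman 0.610, 0.5675 without 2, adjusted permutation p = 0.0001). Opposite movement was seen for Mest and Copg2 (r -0.529, Spearman -0.673, -0.447 without 2, adjusted permutation p = 0.0001), for Dlk1 and Meg3 (r -0.466, Spearman -0.555, -0.652 without 2, adjusted permutation p = 0.0110) and for Cdkn1c and Kcnq1ot1 (r -0.465, Spearman -0.396, -0.349 without 2, adjusted permutation p = 0.00836). Igf2 and H19, which share enhancers, had an r of 0.029 (adjusted permutation p = 0.917), and Igf2r and its antisense RNA Airn an r of 0.305 (adjusted permutation p = 0.0638). On log2(TPM + 1) the pair of Mest and Copg2 had an r of 0.139, that of Cdkn1c and Kcnq1ot1 -0.203 and that of Dlk1 and Meg3 -0.356, none past the threshold.

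In retinas (48 libraries) 4 pairs passed: Meg3 and Mirg (r 0.669, Spearman 0.660, 0.591 without 2 libraries, adjusted permutation p = 4e-05), Meg3 and Rian (r 0.458, Spearman 0.426, 0.342 without 2, adjusted permutation p = 0.00836), Snrpn and Ndn (r 0.450, Spearman 0.496, 0.365 without 2, adjusted permutation p = 0.00436), and Peg13 and Trappc9 (r 0.354, Spearman 0.210, 0.217 without 2, adjusted permutation p = 0.0312). The last pair rested on Pearson's r, since its adjusted permutation p by Spearman was 0.227, and on log2(TPM + 1) its r was -0.04 (adjusted permutation p = 0.886). With the GC offset only Meg3 with Mirg (r 0.648) and Snrpn with Ndn (r 0.667) passed there. Some of these genes overlap (Peg13 lies within Trappc9 on the same strand, Mest with Copg2 and Igf2r with Airn lie on opposite strands), and the strand setting of the counting is not known, so part of such a pair's reads may be shared. Meg3, Rian and Mirg do not overlap in the annotation.

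Rod markers varied between eyecups, and the share of members that moved with them was near that of all genes. Against the deviation of the mean log2 level of the 10 rod markers, 25 of 36 members had a called slope in eyecups, 16 positive and 9 negative, beside 66.7% of all genes, 27.5% positive and 39.3% negative. The steepest were Meg3 (0.83, SE 0.04), Usp29 (0.82, SE 0.04), Mirg (0.66, SE 0.05), Rian (0.46, SE 0.03) and Peg3 (0.43, SE 0.02), all of them higher in retinas than in eyecups. Meg3 ranged from 13.8 to 557 CPM over the 45 eyecups and from 773 to 1586 CPM over the 48 retinas. Plagl1 had a slope of -0.00092 (SE 0.035) and Ube3a one of -0.02 (SE 0.03), neither called.

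Genes outside the members, in lists chosen with earlier results of these data known, gave few genotype calls. Of 57 other genes reported as imprinted, 49 were tested in eyecups. At 3 months edgeR called 0 of them, beside 3.07% of all genes; 3 had an unadjusted p under 0.05, DESeq2 called 1 and limma voom 5. For the mean of ages 2 of the 49 were called, beside 4.48% of all genes. H13, a signal peptide peptidase gene, was higher (log2 difference 0.13, SE 0.03) and Casd1, a sialic acid acetyltransferase gene, lower (-0.26, SE 0.07). In retinas 38 were tested, and at 3 months Cd81, a tetraspanin gene (-0.19, SE 0.05), and Commd1 (-0.21, SE 0.06) were lower. These were the 2 called, beside 0.87% of all genes lower. With age in the retina 6 rose and 14 fell, with a median of -0.069, beside 19.1% of all genes higher and 17.3% lower.

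Of the other PLAG family genes, Plag1 and Plagl2, neither was called in an eyecup genotype comparison. At 3 months Plag1 had a log2 difference of -0.29 (SE 0.32) and Plagl2 of 0.18 (SE 0.11). In retinas Plagl2 was higher in Efemp1ki/ki at 3 months (0.14, SE 0.04, adjusted p = 0.0447 by edgeR with Benjamini-Hochberg adjustment). Of 16 genes of IGF and insulin signalling, edgeR called 0 for genotype over the mean of ages in eyecups (4 at an unadjusted p under 0.05, 1 called by DESeq2 and 1 by limma voom) and 0 in retinas (1 unadjusted, 0 by DESeq2 and limma voom). Insr, the insulin receptor, differed in its genotype difference between tissues (-0.19, SE 0.06). It was the 1 of 16 called, beside 3.23% of all genes. Of 18 tested factors that maintain imprints, Cbx3, a heterochromatin protein, was lower in Efemp1ki/ki eyecups at 3 months (-0.53, SE 0.10) and for the mean of ages (-0.33, SE 0.06). It was the 1 of 18 called in each, beside 3.07% and 4.48% of all genes. With the GC offset the 3-month calls over all genes fell from 553 to 14. Zfp445, a zinc finger protein that guards imprints, was higher in Efemp1ki/ki retinas at 3 months (0.20, SE 0.06). It was the 1 of 18 called there, beside 1.83% of all genes. Of 20 extracellular matrix genes reported in the imprinted gene network, edgeR called 0 for genotype over the mean of ages in eyecups (1 at an unadjusted p under 0.05, 0 by DESeq2 and limma voom). Of the 18 tested in retinas it called 0 (4 unadjusted, 0 by DESeq2 and 1 by limma voom). With age 8 of them fell in eyecups, among them Col1a1 (-1.06, SE 0.15) and Col1a2 (-0.80, SE 0.15), and 0 rose, beside 9.13% of all genes lower and 11.6% higher. Of 8 fibroblast markers 2 fell there and 0 rose (median -0.258); their part in this result was not tested.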

How the data were processed

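Groups and replicate numbers were taken from the sample titles and characteristics, and genes from their symbols. The members and lists were chosen with earlier results of these data known. The authors deposited estimated counts per gene, of which 37.9% of values were not whole; they were rounded. The authors deposited a score per gene, named TPM in the files, which sums to 1000000 over protein-coding genes of a library, as tested on the deposited file. These values were used for levels between genes and in 1 alternative, as log2(TPM + 1). Genome build GRCm38.p4 was named per the submitters' processing notes, and libraries were made with a stranded poly(A) kit per the labels' protocols. For the aligner, counting tool, annotation and strand setting, nothing is given in the sources used here. Of each file 1 column fitted none of the labels and stayed unused.

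Genes were filtered with filterByExpr, scaled with TMM factors and tested with edgeR 4.0.16 (quasi-likelihood F test, robust) in R 4.3.3, with Benjamini-Hochberg adjustment over all genes and a threshold of 0.05. Each tissue had 1 fit of its 6 groups, and a joint fit of all 12 gave tissue and genotype by tissue. SE were derived from the F statistic. The fits were tested on simulated data. Library depth sets counting precision, and both counting error and the spread between libraries entered the edgeR tests. Alternatives were RLE size factors, no filter beyond 1 read, the 2 groups alone, a replicate block, DESeq2 1.42.0, limma 3.58.1 (voom with quality weights, and log2(TPM + 1) with a pseudocount of 1), marker covariates, leaving out 3 libraries that stood apart, a GC offset per library (spline with 5 degrees of freedom on the transcript's GC content, known for 99.6% of genes), and, added after seeing the data, leaving out libraries of extreme GC trend, covariates with the GC offset, and slopes on rod markers. Correlations used 100000 permutations, 2-sided.

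Named genes were Plagl1, each member called for genotype, the 6 smallest p-values among members called for age, tissue and slope, the domain pairs, untested members, up to 4 genes a list, and the 6 genes most like Plagl1. Other members are named by level, count or slope, chosen after their values were seen. Promoter sequences are from RefSeq (GRCm38.p6).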

Additional observations from a re-analysis of the deposited data

Results flagged for a closer look

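In 3 of 108 groups of libraries checked over 9 members, 1 library lay far above the others of its group; chance alone gives about 1 in 20. Gnas reached 819 CPM and Igf2r 112 CPM in the same Efemp1ki/ki eyecup at 3 months (replicate 8), where the group medians were 696 and 88.9 CPM. Snrpn reached 263 CPM in 1 Efemp1ki/ki retina at 9 months (replicate 7), where the group median was 226 CPM. The genotype differences of Plagl1 and Ube3a differed between tissues: eyecup minus retina they were -0.80 and -0.42 in log2 units, both past the edgeR test of that difference. Of 12 alternatives 12 called this difference for Plagl1 and 1 called it for Ube3a.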

How the results depend on the processing

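Of 205 counts of calls or pairs recomputed under an alternative, 150 stayed within 1.5 times the reported count and 55 did not; of 636 values of named genes, 522 kept their direction and their side of the threshold, 97 lost the call, 3 gained it and 14 changed sign. The causes were not tested. In eyecups at 3 months 2 members were called; the count was 5 with marker covariates, and 1 with the 2 groups alone, the replicate block, log2(TPM + 1), the GC offset, the GC offset with the block, or without libraries of extreme GC trend. Over all genes that comparison gave 553 calls, 160 with the block, 976 with DESeq2, 2359 with voom, 2186 with covariates, 101 with the 2 groups alone, 14 with the GC offset or without the extreme libraries, 10 on log2(TPM + 1) and 3 with the GC offset and block. At 17 months the count of 0 became 1 with DESeq2 or with covariates and GC offset, and 3 with voom. For the mean of ages the 2 became 6 with covariates, 4 with covariates and GC offset, and 1 on log2(TPM + 1), with the GC offset or with that and the block. For eyecup age the 7 became 4 with the block, 12 with voom and 0 with covariates, with or without the GC offset. Over all genes the 3724 calls for eyecup age became 2672 with the block and 5256 with voom. They became 688 with covariates and 751 with these and the GC offset.

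In retinas at 3 months the 5 became 2 without a filter, 3 with the 2 groups alone, 8 with voom and 0 with covariates, with or without the GC offset. Over all genes the 316 calls became 137 without a filter, 557 with the 2 groups alone and 1927 with voom. They became 4 with covariates and 3 with these and the GC offset. At 17 months the 0 became 2 with DESeq2, the GC offset or that with the block, 3 on log2(TPM + 1) and 1 with covariates and GC offset. The 6 for the mean of ages became 0 with covariates and 2 with these and the GC offset, and the 22 for age became 14 with covariates. Over all genes the 903 calls for the mean of ages became 136 with covariates and 414 with these and the GC offset. The 6273 for age became 3380 with covariates. Genotype by tissue fell from 2 to 1 under 10 settings, among them RLE, no filter, the block, log2(TPM + 1), covariates, the GC offset and leaving out either set of libraries. The 1 eyecup slope became 2 with covariates, 0 with the GC offset alone, with the block or with covariates, and 13 on log2(TPM + 1), where the median of all genes lay at 0.19. Over all 18002 genes the 388 called slopes became 1975 with covariates and 7068 on log2(TPM + 1). They became 28 with the GC offset, 27 with that and the block, and 299 with covariates and GC offset. The 11 retinal slopes became 7 with voom or without the 2 libraries that stood apart, 6 without the 4 of extreme GC trend or with covariates and GC offset, and 3 on log2(TPM + 1), with the GC offset or with that and the block. Over all genes the 5868 became 5593 with voom, 5480 without the 2 libraries and 3620 without the 4. They became 1695 with covariates and GC offset, 618 on log2(TPM + 1), 1078 with the GC offset and 779 with that and the block. The 4 retinal pairs became 2 with the GC offset.

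Signs changed for values that were not called, or lost the call. Plagl1 was at 0.0131 with voom in eyecups at 9 months, and for eyecup age at -0.0255 with voom and at -0.0337 on log2(TPM + 1). In retinas it was at -0.0473 with covariates and GC offset at 3 months, at -0.0093 with covariates and -0.0409 with these and the GC offset for the mean of ages. Its retinal change of genotype difference with age was -0.04 with voom, -0.0082 on log2(TPM + 1), -0.0491 without libraries that stood apart and -0.12 without those of extreme GC trend. Zdbf2 for eyecup age was at -0.0341 with covariates and -0.18 with these and the GC offset. The retinal slope of Impact was -0.036 with the GC offset and -0.039 with that and the block.

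Replicate numbers did not pair the libraries: over 42 pairs of genotypes the correlation of same-numbered deviations ran from -0.568 to 0.812, and 6 libraries correlated best with their own number. With the replicate block Plagl1 was called in eyecups at 3 months and for the mean of ages, and Ube3a at 3 months was not (adjusted p = 0.056 by edgeR). Members at a few counts in retinas, such as Phlda2, Dlk1 and Asb4, were left out there by the filter on low counts.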
